A study of Mus musculus with 16 samples.

Results

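Chemokines are small secreted or membrane-anchored proteins that draw leukocytes along a gradient, each through one or more G protein-coupled receptors. In lung, the CXC chemokines that carry a glutamate-leucine-arginine motif before their first cysteines attract neutrophils, mainly through CXCR2, while other family members attract T cells, monocytes, dendritic cells or NK cells. Epithelial cells switch many of these genes on in response to interleukin-1, TNF, interferons and microbial products, with NF-kB as a main transcriptional activator, and several of the mRNAs are short-lived.

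The 10 genes described here were taken by symbol from a list of chemokines that lung tumour cells can make. All 10 were found among the 20622 genes of the total RNA tables and the 15235 genes with counts of ribosome-protected fragments (RPFs). The list holds neutrophil attractants of the CXC family (*Cxcl1*, *Cxcl2*, *Cxcl3*, *Cxcl5* and *Cxcl15*), the interferon-induced *Cxcl10*, the membrane-anchored *Cxcl16* and *Cx3cl1*, and the CC chemokines *Ccl2* and *Ccl20*. They were taken by name, with no threshold on a measured value.

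Both cell lines came from lung tumours of 1 male mouse carrying *Rosa26* LSL-MYC/LSL-MYC, in which Ad5-SPC-CRE had switched on the transgene in cells that use the surfactant protein C promoter, and both had been transduced with a lentiviral CRISPR vector. KM_NTC cells carry a non-targeting guide. KM_4A2cr cells carry a guide against the coding region of *Eif4a2*, the gene of an RNA helicase that works with the CCR4-NOT complex, and are a pool of 4 clones that lacked the protein, so clonal differences between the lines cannot be told apart from loss of eIF4A2. Untreated cultures of each line were collected in 4 replicates on different days, and RPFs and cytoplasmic total RNA were sequenced from the same lysate, giving 16 libraries. The labels do not give the age of the mouse. Differences are given as log2 fold changes of KM_4A2cr over KM_NTC with their standard error (SE), from edgeR's quasi-likelihood fit with p-values adjusted over all genes tested.

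Total counts ran from 4512403 to 9621848 per RPF library and from 5350920 to 9312624 per total RNA library. Footprints on *Eif4a2* were 97.7 to 389 CPM (counts scaled to a common library total) in KM_NTC and 51.0 to 346 CPM in KM_4A2cr, lower in 4 of 4 pairs with a log2 fold change of -0.49 ± 0.15 (SE, edgeR adjusted p = 0.0941), and its total RNA had a log2 fold change of -0.18 (edgeR adjusted p = 0.503). The RPF call of *Eif4a2* was lost without replicate 1, 2 or 3 (edgeR adjusted p = 0.300, 0.377 and 0.351). Replicate 4 stood apart in both lines: its *Eif4a2* footprints were above those of the other 3 replicates, as were those of *Cd68*, a lysosomal glycoprotein of macrophages that other cells make too, at 777 CPM in KM_NTC and 695 CPM in KM_4A2cr against 74 to 126 CPM in the other 6 RPF libraries. Of 10 lung epithelium markers 7 were tested, led by *Cdh1*. *Sftpc* and *Sftpb*, surfactant genes expressed in alveolar type II cells, had 0 counts in all 8 total RNA libraries. *Nkx2-1*, also untested, had 3 total RNA counts over KM_NTC and 0 over KM_4A2cr. Surfactant protein C, the product of *Sftpc*, was among the markers by which the authors assessed the identity of the cells. The reason for this difference was not tested. Of 9 fibroblast markers *Col3a1*, *Dcn* and *Lum* were at 0 in total RNA and the list summed to 3.09 to 9.96 CPM in KM_NTC and 3.60 to 8.53 CPM in KM_4A2cr. Of 10 leukocyte and macrophage markers *Adgre1*, *Lyz2* and *Cd3e* were at 0 in total RNA. Without *Cd68* the list summed to 14.4 to 34.1 CPM in KM_NTC and 10.1 to 35.0 CPM in KM_4A2cr. In RPFs these sums were 108 to 197 and 89.1 to 173 CPM. The largest RPF means in them were *Ly6g*, with 80.6 and 81.1 CPM, and *Cd14*, with 57.0 and 52.4 CPM. *Ptprc* footprints averaged 1.47 and 0.943 CPM, and *Ly6g* total RNA averaged 1.62 and 1.38 CPM.

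Levels can be compared between genes only per transcript length, so the order was taken from TPM, transcript abundance scaled for length, in total RNA. *Cxcl5* stood first in KM_NTC cells with 286 ± 187 TPM (SD, n = 4), rank 476 of 20611 gene symbols. *Cxcl16* followed with 166 ± 10.1 TPM and the narrowest relative spread. *Cxcl1* with 65.5 ± 20.6 TPM, *Cxcl3* with 60.0 ± 32.5, *Ccl20* with 38.1 ± 21.7 and *Cx3cl1* with 19.5 ± 5.61 came next. *Cxcl10* had 2.36 ± 2.08 TPM, and *Cxcl2*, *Ccl2* and *Cxcl15* were each below 1 TPM on average.

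Neighbours in this order overlapped over the 4 libraries except at 2 steps, from *Cxcl16* down to *Cxcl1* and from *Cx3cl1* down to *Cxcl10*. The neutrophil attractants therefore held both the top and the bottom of the list, with *Cxcl5* at one end and *Cxcl2* and *Cxcl15* at the other. In KM_4A2cr cells the mean TPM of *Cxcl5* was 165 ± 157, that of *Cxcl16* 143 ± 23.1 and that of *Cxcl1* 41.3 ± 24.4.

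**Figure D1:**
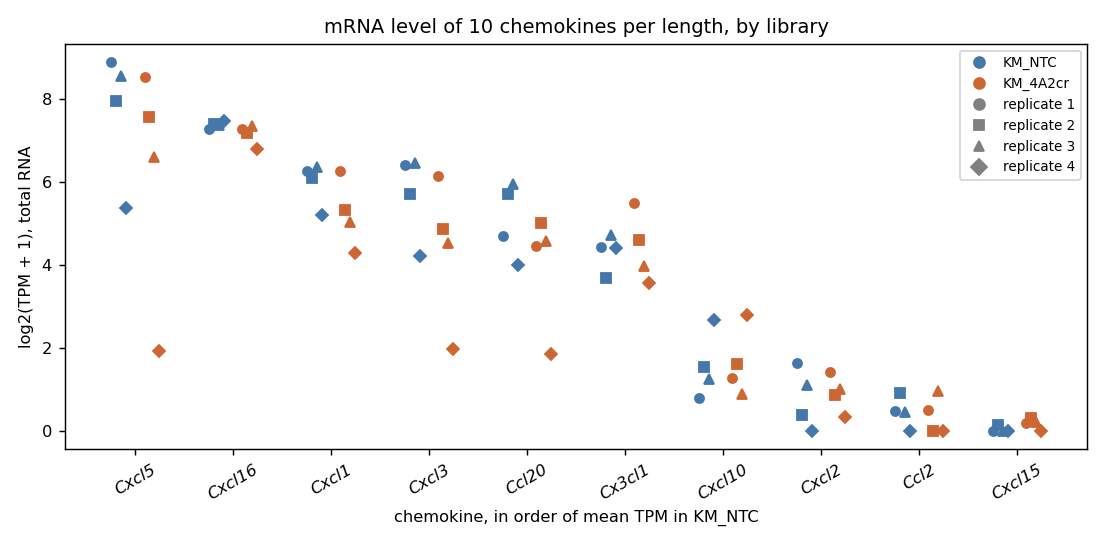
Each point is 1 total RNA library. The y axis is log2(TPM + 1) of the gene, the x axis lists the chemokines in order of mean TPM in KM_NTC (blue) with KM_4A2cr in orange, and marker shapes give the replicate. *Cxcl16* libraries lie close together, while those of *Cxcl5* run from 40.9 to 473 TPM in KM_NTC and from 2.81 to 370 TPM in KM_4A2cr.

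*Cxcl1*, *Cxcl2* and *Cxcl3* sit side by side with *Cxcl5*, *Ppbp*, *Pf4* and *Cxcl15* in a cluster on mouse chromosome 5. The promoters of *Cxcl1*, *Cxcl2* and *Cxcl3* are shown because they carry the same letters, yet *Cxcl2* was measured far below *Cxcl1* and *Cxcl3*. *Cxcl10* is shown because it alone of the 7 promoters found also held interferon-response letters. The sequences are RefSeq's (GRCm38.p6), end at the base before the annotated start and read 5′ to 3′ on the strand of the gene. Capitals mark matches to GGGANNTTC, the centre of the site bound by NF-kB, on either strand, and in *Cxcl10* also to GAAANNGAA, the core of an interferon-response element.
Cxcl1, chr5:90891145-90891244, + strand: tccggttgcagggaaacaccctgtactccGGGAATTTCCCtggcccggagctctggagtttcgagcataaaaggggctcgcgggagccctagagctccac
Cxcl2, chr5:90903799-90903898, + strand: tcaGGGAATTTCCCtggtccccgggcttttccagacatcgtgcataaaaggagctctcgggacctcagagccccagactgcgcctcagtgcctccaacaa
Cxcl3, chr5:90786001-90786100, + strand: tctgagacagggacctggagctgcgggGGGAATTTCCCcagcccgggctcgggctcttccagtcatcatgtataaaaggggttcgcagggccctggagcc
Cxcl10, chr5:92348890-92349139, - strand: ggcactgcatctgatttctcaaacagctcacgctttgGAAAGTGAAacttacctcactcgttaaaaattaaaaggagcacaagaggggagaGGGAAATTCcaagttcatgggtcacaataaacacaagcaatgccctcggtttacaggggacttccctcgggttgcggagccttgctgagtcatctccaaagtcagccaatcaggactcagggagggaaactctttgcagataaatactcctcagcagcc

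The same run of capitals, matched on both strands in an overlap, began 71 bases before the start of *Cxcl1*, 97 before that of *Cxcl2* and 73 before that of *Cxcl3*, and the *Cxcl10* matches began 159 and 213 bases before its start. Promoter entries were found for 7 of the 10 chemokines, and *Cxcl5*, *Cxcl16* and *Ccl2* are named only. Over the 250 bases before the start, GGGANNTTC was held by 4 of the 7 and by 3.23% of the 32851 promoter entries. GAAANNGAA was held by *Cxcl10* alone and by 7.13% of all entries, and TGANTCA, the AP-1 motif, likewise by *Cxcl10* alone and by 6.75%. TATAAA was found in *Cxcl3*, *Cxcl15* and *Cx3cl1* and in 12.4% of all entries. These matches describe letters only, and binding was not measured.

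*Cxcl3* footprints and mRNA were both lower in KM_4A2cr than in KM_NTC cells, the only one of the 10 genes called in both kinds of library. *Cxcl5* and *Cxcl1* had log2 fold changes of the same sign but did not pass the threshold, and *Cxcl2* and *Cxcl15* were too scarce to test. Of the 7 chemokines tested in RPFs 1 was called at an adjusted p below 0.1, beside 10.3% of the 10291 genes tested (3.72% lower and 6.60% higher in KM_4A2cr). In total RNA 2 of 6 were called, *Cxcl3* and *Ccl20*, both lower, beside 6.13% of 10880 genes (1.78% lower and 4.35% higher). No chemokine of the list rose by this test.

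*Cxcl3* encodes a CXCR2 ligand. Its footprints in KM_NTC replicates 1 to 4 were 54.0, 32.4, 64.5 and 13.9 CPM, and in KM_4A2cr replicates 1 to 4 they were 44.9, 18.3, 11.6 and 3.23 CPM. Each KM_4A2cr library was below the KM_NTC library of its own pair, at 83.1%, 56.6%, 18.1% and 23.3% of it, although the ranges of the lines overlapped. The fitted log2 fold change was -1.25 ± 0.34 (SE, edgeR adjusted p = 0.0712).

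*Cxcl3* mRNA followed the same course, with 40.1, 20.8, 42.1 and 10.4 CPM in KM_NTC and 34.8, 12.3, 11.6 and 2.31 CPM in KM_4A2cr. The log2 fold change was -1.04 ± 0.27 (SE, edgeR adjusted p = 0.0709). In both kinds of library 4 of 4 pairs were lower. An exact 2-sided sign-flip permutation test over 4 pairs cannot go below 2 of 16 sign patterns, which these pairs reached, and so cannot pass 0.05. In these bulk cultures fewer expressing cells and less RNA per cell cannot be told apart. Without the replicate block, which ignores the pairing, neither call held (edgeR adjusted p = 0.998 and 0.999), and neither passed 0.05. Leaving out replicate 2 or replicate 3 also ended the calls, with adjusted p = 0.165 and 0.357 in RPFs and 0.156 and 0.445 in total RNA by edgeR. Without replicate 4 the log2 fold changes were -1.09 in RPFs and -0.86 in total RNA, with adjusted p = 0.0154 and 0.00218 by edgeR.

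*Cxcl5*, with the most RPF counts of the 10 (a mean of 152 CPM over the 8 libraries, not scaled for coding length), encodes a neutrophil attractant made largely by epithelium. Its footprints were 287, 156, 236 and 58.5 CPM in KM_NTC replicates 1 to 4 and 271, 117, 79.6 and 5.92 CPM in KM_4A2cr. The KM_4A2cr library held 94.2%, 75.2%, 33.7% and 10.1% of its partner in pairs 1 to 4, so all 4 pairs leaned the same way, from almost level in pair 1 to a wide gap in pair 4. The log2 fold change of -1.13 ± 0.40 (SE) had an adjusted p = 0.139 by edgeR.

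In total RNA, *Cxcl5* had 375.5, 168, 306 and 39.9 CPM in KM_NTC and 308, 136, 83.7 and 3.69 CPM in KM_4A2cr. Again 4 of 4 pairs were lower, and the log2 fold change of -1.20 ± 0.38 (SE) had an adjusted p = 0.124 by edgeR. Being lower in 4 of 4 pairs was shared by 2 of the 7 chemokines tested in RPFs and by 3 of 6 in total RNA, beside 16.0% and 13.0% of all genes tested. The share of all genes higher in 4 of 4 pairs was not counted, nor were such shares for footprints per mRNA. Without replicate 4 the *Cxcl5* log2 fold change moved to -0.67 in RPFs and -0.79 in total RNA, and both then passed the threshold (adjusted p = 0.0332 and 0.00361 by edgeR).

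*Cxcl1*, another CXCR2 ligand, had footprints of 28.3, 20.3, 35.2 and 23.9 CPM in KM_NTC and 31.4, 12.9, 11.6 and 9.96 CPM in KM_4A2cr. Pair 1 was level or slightly higher in KM_4A2cr and the other 3 pairs were lower. The log2 fold changes were -0.78 ± 0.26 in RPFs (SE, edgeR adjusted p = 0.122) and -0.59 ± 0.19 in total RNA (SE, edgeR adjusted p = 0.138), with 3 of 4 pairs lower in each. Without replicate 4 both passed, with -0.63 and -0.59 and adjusted p = 0.0757 and 0.0130 by edgeR, and in RPFs *Cxcl1* also passed without replicate 1, with -1.16 and adjusted p = 0.0764.

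*Cxcl2*, a close relative of *Cxcl1* that macrophages and neutrophils make in quantity, had 8 RPF counts over the 4 KM_NTC libraries and 3 over the KM_4A2cr libraries, and 17 and 16 counts in total RNA. *Cxcl15*, a lung epithelial chemokine known as lungkine, had 19 and 12 RPF counts and 1 and 4 total RNA counts. Neither reached the minimum for a test in either kind of library. A count of 0 in a single library allows up to 0.312 to 0.665 CPM in RPFs and 0.322 to 0.561 CPM in total RNA (3 counts of the library, counting error only), so differences in these genes were not detectable at this depth.

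**Figure D2:**
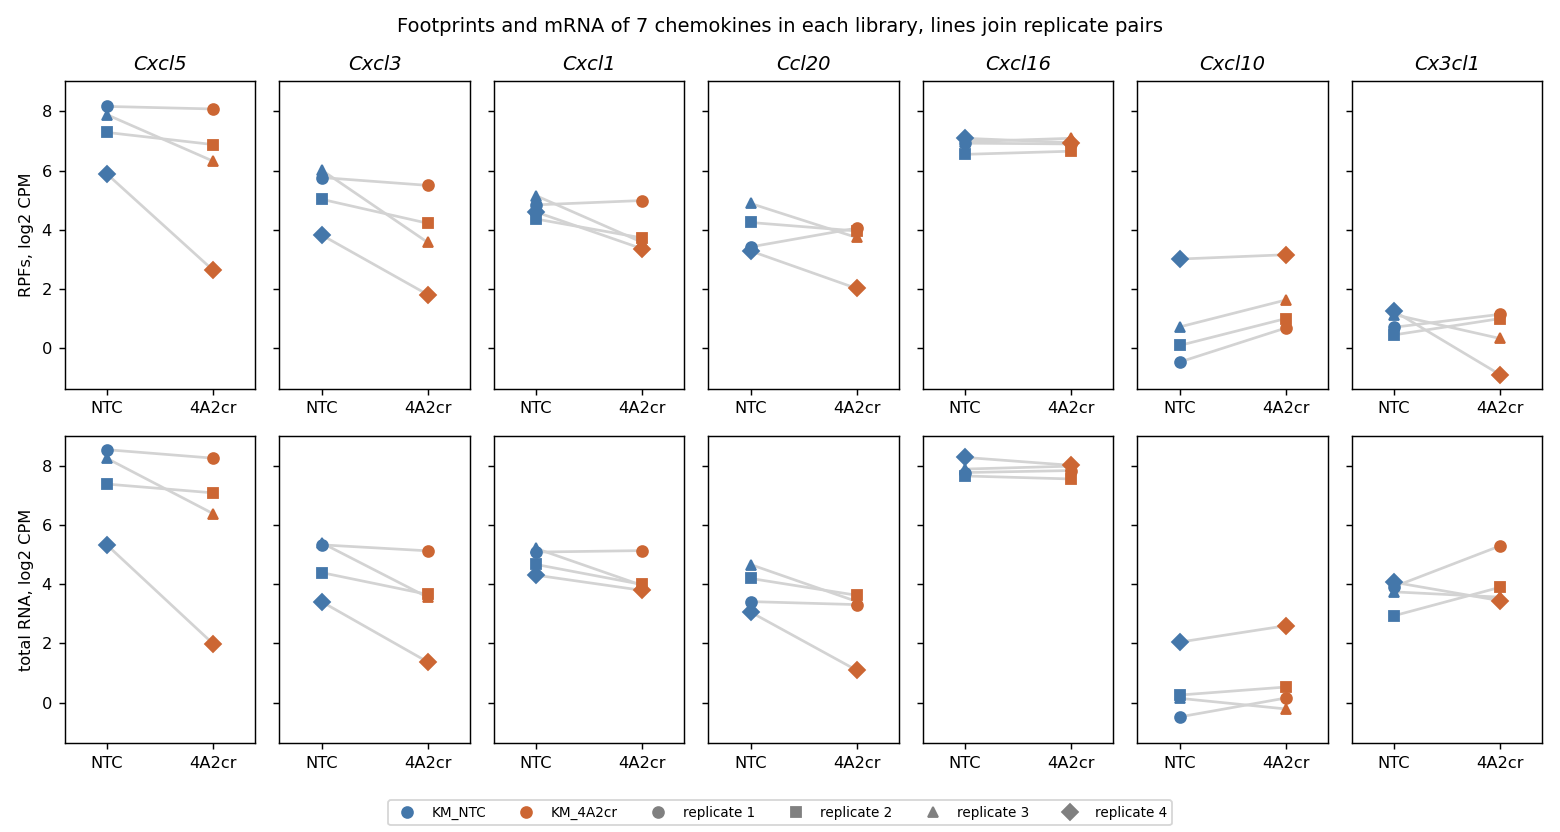
Log2 CPM (prior count 2) of 7 chemokines in RPFs (top row) and total RNA (bottom row), with 1 point per library and grey lines joining the libraries of a replicate pair. Lines of *Cxcl5* and *Cxcl3* all slope down towards KM_4A2cr and are steepest in replicates 3 and 4, lines of *Cxcl16* are nearly flat, and those of *Cxcl10* in RPFs all slope up.

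The gap between the lines differed from pair to pair. In pair 1, *Cxcl1*, *Cxcl3* and *Cxcl5* footprints in KM_4A2cr were between 83.1% and 110.8% of KM_NTC, and in pair 3 they were between 18.1% and 33.7%. *Eif4a2* footprints ran the other way, with pair differences of -0.93, -0.46, -0.42 and -0.17 in log2 CPM for pairs 1 to 4. What sets the pairs apart was not tested.

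*Cxcl5* and *Cxcl3* were also low in replicate 4 within each line. *Cxcl5* footprints there were 25.8% of the mean of replicates 1 to 3 in KM_NTC and 3.80% in KM_4A2cr, and its mRNA was 14.1% and 2.10%. *Cxcl3* footprints were 27.5% and 12.9% of that mean, and *Cxcl1* footprints 85.6% and 53.4%. *Cxcl10* footprints were at 890% and 441% of the mean of the other replicates. *Cxcl16* was at 120% and 104%, so replicate 4, low in *Cxcl5*, was not low in every chemokine.

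In the RefSeq order the cluster runs *Cxcl5*, *Ppbp*, *Pf4*, *Cxcl3*, *Cxcl15*, *Cxcl1* and *Cxcl2*, with *Albfm1* and *Rassf6* on one side and *Mthfd2l* and *Epgn* on the other. *Ppbp*, whose product is a CXCR2 ligand better known from platelets, was expressed as well, and *Pf4* had 1 count in total RNA over all libraries. *Ppbp* footprints were 90.4, 47.0, 64.4 and 16.4 CPM in KM_NTC and 89.2, 23.1, 21.9 and 4.58 CPM in KM_4A2cr. They fell, with a log2 fold change of -0.99 ± 0.26 (SE, edgeR adjusted p = 0.0698) and 4 of 4 pairs lower, while *Ppbp* mRNA had a log2 fold change of -0.27 ± 0.24 (SE, edgeR adjusted p = 0.615). The RPF call was lost without replicate 2 or 3 (edgeR adjusted p = 0.248 and 0.391).

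The flanking genes that could be tested had small differences. *Rassf6*, a member of the RASSF family next to *Cxcl5*, had log2 fold changes of 0.085 in RPFs (edgeR adjusted p = 0.794) and 0.045 in total RNA (adjusted p = 0.920), and *Mthfd2l*, a mitochondrial folate enzyme next to *Cxcl2*, had 0.070 in total RNA (adjusted p = 0.820). *Rassf6* changed sign with scaling by library size only and without replicate 4, and *Mthfd2l* with scaling by library size only. The difference between cluster genes and flanking genes was not tested.

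**Figure D3:**
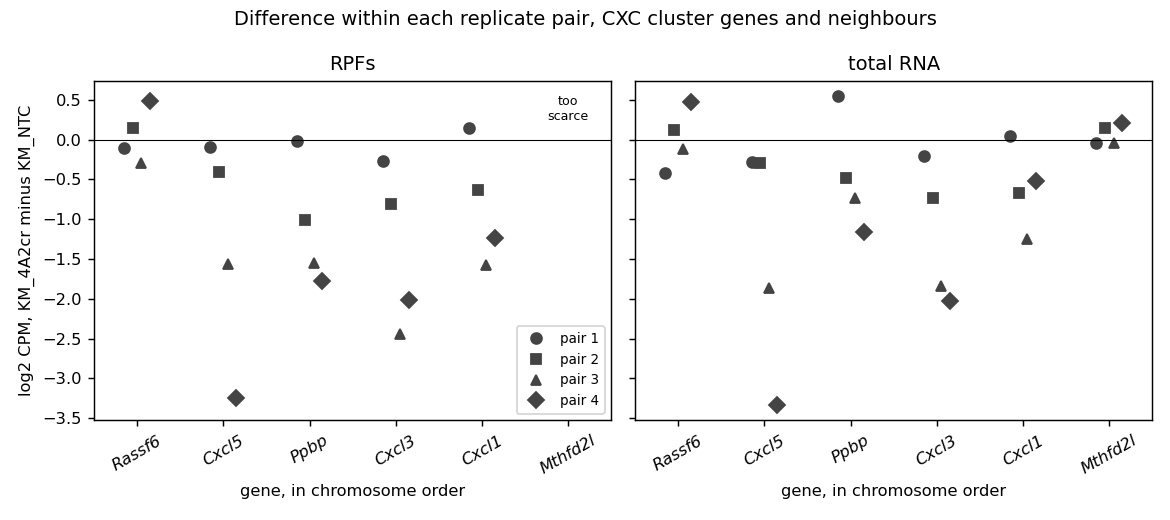
Difference in log2 CPM between KM_4A2cr and KM_NTC within each replicate pair, for the tested genes of the chromosome 5 cluster and its flanks in chromosome order, in RPFs (left) and total RNA (right). Pair 4 of *Cxcl5* lies lowest in total RNA at -3.33, followed by pair 4 of *Cxcl3* at -2.03 and pair 3 of *Cxcl5* at -1.87, while *Rassf6* and *Mthfd2l* straddle 0.

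*Ccl20* encodes the ligand of CCR6, which guides dendritic cells and Th17 cells to epithelium. Its mRNA was 10.4, 18.1, 25.2 and 8.05 CPM in KM_NTC and 9.65, 12.1, 10.4 and 1.84 CPM in KM_4A2cr. It was lower in 4 of 4 pairs and fell with a log2 fold change of -0.84 ± 0.24 (SE, edgeR adjusted p = 0.0992). This call lay next to the threshold: it was lost without replicate 1, 2 or 3 (adjusted p = 0.111, 0.243 and 0.528 by edgeR) and with upper-quartile scaling or a minimum count of 30, and was kept without replicate 4 (adjusted p = 0.00681).

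*Ccl20* footprints were 10.4, 18.7, 29.3 and 9.44 CPM in KM_NTC and 16.3, 15.3, 13.1 and 3.77 CPM in KM_4A2cr, higher in pair 1 and lower in the other 3. The log2 fold change was -0.42 ± 0.29 (SE, edgeR adjusted p = 0.423). RPFs were counted on 1 of 3 *Ccl20* isoforms, one that held 36.0% of the gene's total RNA counts, and on that isoform alone total RNA had a log2 fold change of -0.91 (edgeR adjusted p = 0.254).

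*Ccl2*, the monocyte attractant that fibroblasts and macrophages make in quantity, had 7 RPF counts over the KM_NTC libraries and 1 over the KM_4A2cr libraries, and 5 and 3 counts in total RNA. It was too scarce to test in either.

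*Cxcl10*, induced by interferon, encodes a CXCR3 ligand that attracts activated T cells and NK cells. Its RPF counts were 5, 8, 10 and 37 in KM_NTC and 11, 14, 20 and 32 in KM_4A2cr, or 0.453, 0.794, 1.37 and 7.76 CPM against 1.33, 1.72, 2.81 and 8.62 CPM. Footprints were higher in KM_4A2cr in 4 of 4 pairs, by 0.15 to 1.15 in log2 CPM, but the log2 fold change of 0.75 ± 0.30 (SE) had an adjusted p = 0.177 by edgeR. Without replicate 4 it was 1.18 with an adjusted p = 0.0298, on 23 and 45 counts.

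In total RNA *Cxcl10* had between 3 and 25 counts per library, 39 over KM_NTC and 42 over KM_4A2cr, and did not pass the minimum for a test. With no minimum its log2 fold change was 0.39 ± 0.42 (SE, edgeR adjusted p = 0.834), with 3 of 4 pairs higher.

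*Cxcl16* and *Cx3cl1* are made as transmembrane proteins whose chemokine domain is shed by ADAM10 and ADAM17. *Cxcl16*, the ligand of CXCR6 on T cells, hardly varied: its footprints were 121, 93.2, 125.5 and 136 CPM in KM_NTC and 119, 100.4, 136 and 123 CPM in KM_4A2cr. The log2 fold changes were 0.013 ± 0.12 in RPFs (SE, edgeR adjusted p = 0.960) and -0.050 ± 0.13 in total RNA (SE, edgeR adjusted p = 0.883). These standard errors are the smallest of the 7 chemokines tested, and the sign changed with the scaling and with the replicate left out.

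*Cx3cl1*, the ligand of CX3CR1 on monocytes and NK cells, had 14.9, 7.38, 13.1 and 16.5 CPM of mRNA in KM_NTC and 39.1, 14.6, 11.6 and 10.6 CPM in KM_4A2cr. Pairs 1 and 2 were higher in KM_4A2cr and pairs 3 and 4 lower, and the log2 fold change of 0.48 ± 0.29 (SE) had an adjusted p = 0.436 by edgeR. Without replicate 4 it was 0.81 with an adjusted p = 0.00499. Footprints were few, with 50 counts over KM_NTC and 38 over KM_4A2cr, and they were counted on a transcript of 377 bases that held 6.85% of the gene's total RNA counts, while a transcript of 3315 bases held 87.4%. The RPF log2 fold change was -0.18 ± 0.46 (SE, edgeR adjusted p = 0.848). It covers only reads that aligned to the coding region of that short transcript, whichever transcript they came from.

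Of the 4 shedding genes, all tested, 2 rose in RPFs, beside 6.60% of all genes tested, and none in total RNA, beside 4.35%. *Adam10*, the main constitutive sheddase of both proteins, rose with a log2 fold change of 0.55 ± 0.16 (SE, edgeR adjusted p = 0.0836), and *Rhbdf1*, which helps ADAM17 mature, rose by 0.50 (edgeR adjusted p = 0.0713). *Adam17* itself had 0.34 (edgeR adjusted p = 0.193). Leaving out replicate 1, 2 or 3 ended both calls, with edgeR adjusted p of 0.274, 0.374 and 0.364 for *Adam10* and 0.222, 0.361 and 0.199 for *Rhbdf1*.

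No chemokine of the list was called for translational efficiency, the difference in footprints beyond that in mRNA, beside 2.32% of the 11295 genes tested. By edgeR 2 of the 7 had an unadjusted p below 0.05, and DESeq2, which gave an adjusted p to 2 of the 7 only, called neither of those. For *Cxcl3*, *Cxcl5* and *Cxcl1* the log2 differences were -0.19 ± 0.15 (SE), 0.12 ± 0.11 (SE) and -0.14 ± 0.15 (SE), with adjusted p between 0.655 and 0.752 by edgeR. The difference in RPFs of these 3 genes was thus of about the size of that in mRNA.

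*Ccl20* had a log2 difference of 0.39 ± 0.18 (SE, edgeR adjusted p = 0.362), with footprints per mRNA higher in KM_4A2cr in 4 of 4 pairs. Its RPFs were counted on the isoform with 36.0% of the gene's total RNA counts, while its mRNA was summed over all isoforms. KM_4A2cr replicate 4 held 14 RPF and 8 total RNA counts of *Ccl20*. *Cx3cl1* had -0.80 ± 0.35 (SE, edgeR adjusted p = 0.300), lower in 4 of 4 pairs, with the short transcript named above on the RPF side. *Cxcl10* had 0.22 ± 0.48 (SE, edgeR adjusted p = 0.906) and *Cxcl16* 0.059 ± 0.096 (SE, edgeR adjusted p = 0.860). The *Cxcl10* value rests on total RNA counts that were too scarce to test on their own. *Ppbp*, outside the list, was called, with -0.62 ± 0.15 (SE, edgeR adjusted p = 0.0414). Leaving out replicate 1, 2 or 3 ended that call, with adjusted p = 0.307, 0.178 and 0.268.

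**Figure D4:**
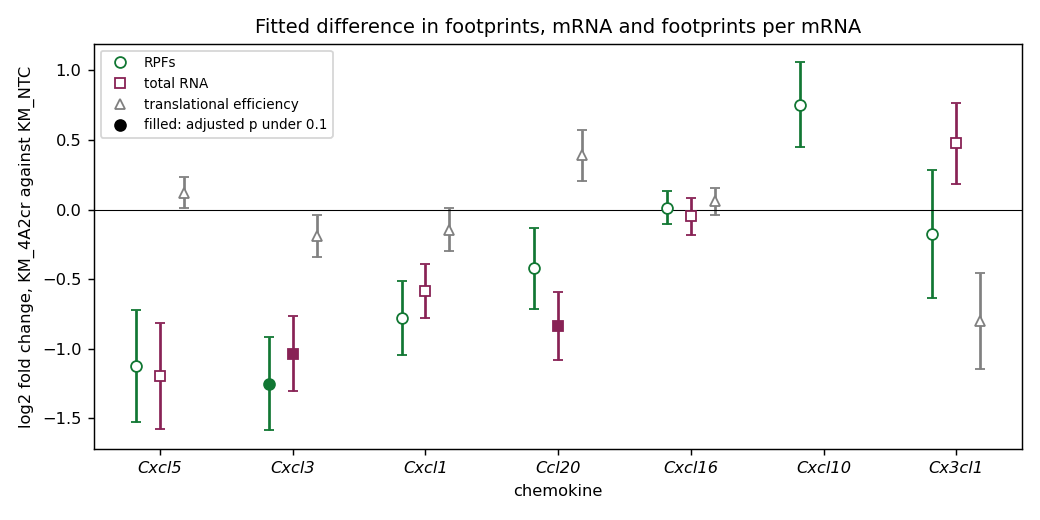
Log2 fold changes of KM_4A2cr against KM_NTC from edgeR with their standard errors (bars), for footprints (circles), total RNA (squares) and translational efficiency (triangles), with filled symbols where the adjusted p was below 0.1. Only *Cxcl3* is filled in both RPFs and total RNA, *Ccl20* is filled in total RNA, and *Cxcl10* is plotted for RPFs only, since its mRNA was too scarce to test.

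Of 28 further chemokine ligands on a list, 3 were tested in each kind of library. In RPFs *Ppbp* alone was called, lower, beside 3.72% of all genes tested, and in total RNA none was, beside 6.13%. Of 23 chemokine receptors 1 was tested in RPFs and 3 in total RNA. In each kind 1 was called, higher, beside 6.60% and 4.35% of all genes tested. *Ackr3*, a scavenging receptor of CXCL12, rose in both, from 66.1 ± 54.0 to 161 ± 59.3 CPM in RPFs (SD, n = 4), with log2 fold changes of 1.53 ± 0.22 in RPFs (SE, edgeR adjusted p = 0.0110) and 1.61 ± 0.28 in total RNA (SE, edgeR adjusted p = 0.0134). Without replicate 3 the calls of *Ackr3* were lost (edgeR adjusted p = 0.164 and 0.129). *Cxcr2*, the receptor of the neutrophil attractants, had 473 to 1322 counts per total RNA library but 0 to 10 per RPF library, and its mRNA had a log2 fold change of 0.031 (edgeR adjusted p = 0.944).

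Among inducers of chemokines and their receptors, 15 of 20 were tested in RPFs, with 2 higher and 1 lower, beside 6.60% and 3.72% of all genes tested. In total RNA 17 were tested and 1 was called, lower, beside 1.78%. *Il1a*, which encodes the alarmin interleukin-1 alpha, fell in both kinds of library. Its footprints were 26.1, 46.4, 40.0 and 36.9 CPM in KM_NTC and 11.4, 23.9, 13.5 and 15.3 CPM in KM_4A2cr, without overlap, and the log2 fold changes were -1.24 ± 0.15 in RPFs (SE, edgeR adjusted p = 0.00453) and -1.06 in total RNA (edgeR adjusted p = 0.00605). *Il1a* was lower in 4 of 4 pairs of each kind, by -0.95 to -1.55 in log2 CPM in RPFs and by -0.75 to -1.54 in total RNA. The interferon receptor chains *Ifngr1* and *Ifnar1* rose in RPFs by 0.56 (edgeR adjusted p = 0.0500) and 0.48 (edgeR adjusted p = 0.0804). Without replicate 1, 2 or 3 these calls were lost, with edgeR adjusted p of 0.189, 0.280 and 0.275 for *Ifngr1* and 0.273, 0.334 and 0.317 for *Ifnar1*, while those of *Il1a* held whichever replicate was left out.

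None of the 15 tested NF-kB subunits and regulators was called in either kind of library, beside 10.3% of all genes tested in RPFs and 6.13% in total RNA. *Chuk*, an inhibitor-of-kB kinase with the highest RPF CPM of the list, had an RPF log2 fold change of 0.44 (edgeR adjusted p = 0.176). It was higher in 4 of 4 pairs, as was *Bcl3* of the same list, with 0.71 (edgeR adjusted p = 0.120). The share of all genes higher in 4 of 4 pairs was not counted. *Nfkbiz*, a co-activator of a subset of NF-kB targets, had -0.33 (edgeR adjusted p = 0.250) with 4 of 4 pairs lower. None of the 15 mRNA decay and stability factors was called either, beside the same shares, and *Tnks1bp1*, a CCR4-NOT partner with the highest RPF CPM of its list, lay just outside the threshold with -0.42 (edgeR adjusted p = 0.101). Median log2 fold changes in RPFs were 0.11 over the NF-kB list and -0.046 over the decay list, beside -0.0090 over all genes tested.

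Of the 7 tested markers of epithelium 2 rose in RPFs, beside 6.60% of all genes tested, and none was called in total RNA. *Epcam* and *Cdh1*, which encode adhesion proteins, rose by 0.51 (edgeR adjusted p = 0.0770) and 0.44 (edgeR adjusted p = 0.0845). The other 5 were not called, with RPF log2 fold changes of 0.32 for *Cldn4*, 0.13 for *Krt19*, -0.045 for *Krt8*, -0.059 for *Krt7* and -0.10 for *Krt18*, and the median over the 7 was 0.13 beside -0.0090 over all genes tested. Without replicate 1, 2 or 3 neither was called, with edgeR adjusted p of 0.223, 0.377 and 0.340 for *Epcam* and 0.223, 0.377 and 0.366 for *Cdh1*. *Pdgfra* of fibroblasts, *Cd68* of macrophages and *Kdr* of endothelium had RPF log2 fold changes of 0.56, 0.18 and -0.21, with adjusted p = 0.301, 0.537 and 0.663 by edgeR. The part of these markers in the chemokine values was not tested.

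Over the 8 RPF libraries the 5 genes whose log2 CPM followed *Cxcl5* most closely were *Clca3a1*, *Hist2h2ac*, *Depdc5*, *Nsd1* and *Lypla2*, with Pearson r between 0.986 and 0.990. Among the chemokines *Cxcl3* had r = 0.958, *Ccl20* 0.839, *Cx3cl1* 0.800 and *Cxcl1* 0.748, whereas *Cxcl16* had -0.217 and *Cxcl10* -0.846. These values describe 8 libraries that share replicate numbers and differ in depth, from 4512403 to 9621848 counts. Replicate 4 had the lowest depth and lies at one end of the *Cxcl5* range in both lines.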

How the data were processed

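The 10 chemokines and the other gene lists were chosen with earlier results of these data known. RPF values are the counts that the authors deposited per transcript: reads trimmed with cutadapt 1.18, aligned with BBmap to the most abundant protein-coding transcript of each gene (GENCODE vM27), deduplicated with UMI-tools 1.0.1, and summed over the coding region without its first 20 and last 10 codons, for fragments of 28 to 33 bases. Total RNA values are the expected counts and TPM per isoform that the authors deposited from Bowtie2 2.3.5.1 and RSEM 1.3.3. Both were summed per gene, a gene missing from an RPF library being taken as 0, and expected counts were rounded.

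Tests used edgeR 4.0.16 (R 4.3.3): filterByExpr with a minimum count of 10, TMM scaling, glmQLFit and glmQLFTest with replicate number and cell line as terms, and Benjamini-Hochberg adjustment over all genes tested and 0.1 as the threshold. For translational efficiency a single model over all 16 libraries held a term for each lysate, and the line-by-kind interaction was tested. Fits were tested on simulated data. Libraries of the same number were paired. Deviations from the line means correlated across genes at 0.575 to 0.782 in every such pair. Libraries of different numbers were not compared, so these correlations cannot show that this matching is better than another. Per the labels the replicates were harvested on different days, without saying that a number marks a day shared by both lines. The named genes were all 10 chemokines, called genes and the most abundant gene in RPFs of each other list, the 5 genes most like *Cxcl5*, and *Eif4a2*. *Rassf6*, *Mthfd2l*, *Nfkbiz*, *Bcl3*, *Adam17*, *Cxcr2*, *Pf4*, *Ly6g*, *Cd14*, *Ptprc* and *Nkx2-1* were named after their values were seen or for their position. RefSeq promoters and gene order are of GRCm38.p6, not the build of the files, so no coordinates of the measured transcripts are given. Scaling within each kind of library leaves no trace of a change in all footprints or all mRNA. Alternatives were no replicate block, DESeq2 1.42.0, other scalings and filters, a threshold of 0.05, each replicate left out, and counts or TPM of the RPF isoform only. A further allele of the mouse is not reported here.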

Additional observations from a re-analysis of the deposited data

Results flagged for a closer look

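In 3 of 26 groups of 4 libraries checked on log2 CPM, 1 library lay far from the other 3; chance alone flags about 1 in 20 groups. *Ccl20* footprints in KM_4A2cr replicate 4 were at 2.01 log2 CPM against 3.74 to 4.05 in the other 3, and *Ccl20* mRNA in the same replicate was at 1.10 against 3.31 to 3.63. *Cxcl1* mRNA in KM_4A2cr replicate 1 was at 5.14 against 3.80 to 4.00.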

How the results depend on the processing

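Levels and calls of the chemokines and log2 fold changes of *Eif4a2*, the cluster genes and the other called genes were recomputed with the alternatives listed in the methods that apply to them, and medians of lists, correlations and genes named only for their abundance were not. The number of chemokines called in RPFs, 1 as reported, was 0 without the replicate block and at a threshold of 0.05, 2 with DESeq2, 3 with scaling by library size only or with no filter on low counts, and 0 to 4 when 1 replicate was left out. In total RNA the number, 2 as reported, was 0 without the replicate block and at a threshold of 0.05, 1 with upper-quartile scaling, with a minimum count of 30 or with the RPF isoform only, 4 with library size only, 5 with no filter, and 0 to 5 when 1 replicate was left out. For translational efficiency it was 0 under every alternative, DESeq2 giving an adjusted p for 2 of the 7 genes only. Without the block the pairing is ignored and 0 genes were called in all 3 comparisons, with 365, 362 and 544 genes at an unadjusted p under 0.05; the *Cxcl3* log2 fold change in RPFs was then -1.06. Without replicate 4 3469 genes were called in RPFs over the whole table (1062 with it) and 3260 in total RNA (667 with it), and without replicate 3 they were 32 and 63; the cause was not tested. Scaling by library size only shifted the centre of the whole table, with a median of -0.145 against -0.0090 as reported for RPFs and -0.146 against 0.0099 for total RNA (log2 fold changes), and turned 383 lower and 679 higher RPF calls into 1137 and 482, and upper-quartile scaling into 464 and 534. The signs that changed were those of *Cxcl16* in RPFs (-0.027 with upper-quartile scaling, -0.12 with library size only, -0.014 to 0.066 with 1 replicate left out) and in total RNA (-0.099 to 0.013 with 1 replicate left out), *Cx3cl1* in RPFs (-0.54 to 0.15 with 1 replicate left out), *Rassf6* (with library size only -0.040 in RPFs and -0.11 in total RNA, with 1 replicate left out -0.060 to 0.22 and -0.10 to 0.17), *Mthfd2l* mRNA (-0.085 with library size only) and *Ppbp* mRNA (0.055 without the block). The log2 fold changes of *Cxcl1*, *Cxcl3* and *Cxcl5* stayed below 0 under every alternative in RPFs and in total RNA. Mean TPM in KM_NTC of the RPF isoform only was 16.4 for *Ccl20* and 8.85 for *Cx3cl1*.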
